A study of Mus musculus with 12 samples.

Results

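Of the 23781 gene symbols counted in these hippocampi, 92 were cadherin or protocadherin genes. They were all the symbols made of Cdh and a number or beginning with Pcdh, and the reads of their 126 RefSeq entries were summed per symbol. 35 of them were non-clustered, namely 23 Cdh genes and 12 Pcdh genes outside the Pcdha, Pcdhb and Pcdhg clusters. The other 57 were clustered protocadherins, with 14 in the Pcdha, 22 in the Pcdhb and 21 in the Pcdhg cluster. RNA was sequenced from 12 male C57BL/6 mice in 2 experiments. Each mouse was injected bilaterally in the hippocampus at 10 weeks of age with an AAV5 vector and the hippocampi were dissected 10 weeks later. In the miR-9 experiment, 3 mice received GFP-miR-9sp (mice 9, 17 and 23) and 3 received GFP alone (GFP Ctrl, mice 2, 8 and 16). In the miR-34 experiment, 3 mice received GFP-miR-34sp (mice 3, 13 and 18) and 3 received GFP Ctrl (mice 4, 8 and 10, where mouse 8 is another animal than mouse 8 of the miR-9 experiment). A sponge is a transcript with repeated, imperfectly complementary sites that occupies a miRNA and so keeps it from its targets. All vectors carried GFP behind the synapsin promoter, which is active in neurons, whereas the RNA came from the entire hippocampus. A change in neurons is therefore diluted by the other cells, and in such bulk RNA fewer cells of a type and less RNA per cell cannot be told apart. The labels call the material hippocampal neurons, but the 4 astrocyte markers together had 23187 to 38808 scaled reads in each mouse, and all 4 microglial markers passed the read limit.

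Cadherins are calcium-dependent adhesion proteins that hold cells together through their extracellular cadherin repeats. The classical cadherins bind catenins and thereby the actin cytoskeleton, and in the hippocampus they are known for the assembly and plasticity of synapses and for the targeting of mossy fibres and other axons. Clustered protocadherins are made from arrays of alternative first exons, so that single neurons display different sets of isoforms, and they are known for self-avoidance of dendrites and for neuronal survival. The non-clustered protocadherins of the delta group act more weakly as adhesion proteins and signal through their cytoplasmic tails to actin regulators. The comparisons ask whether sequestering miR-9 or miR-34 in adult hippocampal neurons changed the mRNA level of these genes.

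The sequences below show the miRNAs that the sponges bind, with the seed (bases 2 to 8) in capitals, as RefSeq gives them. The miR-34 family members miR-34a and miR-34b share 1 seed, and miR-34c-5p belongs to the same family.
mmu-miR-9-5p: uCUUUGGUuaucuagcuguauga
mmu-miR-34a-5p: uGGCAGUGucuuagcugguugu
mmu-miR-34b-5p: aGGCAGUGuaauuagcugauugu
The letters ACCAAAG (miR-9) and CACTGCC (miR-34) that pair with these seeds were searched on the sense strand, taking for every gene its longest 3′ UTR annotated in GENCODE M1 (mm9). A match followed by A is called an 8-base match here. These stretches are shown because they are the matches in non-clustered members other than Pcdh1 that passed the read limit given below. Capitals mark the match and, where it follows, the A.
Cdh1, miR-9, chr8:109193294-109193315, plus strand: actggagtgccaccACCAAAGA
Cdh4, miR-9, chr2:179633346-179633367, plus strand: ctgggtctcctgccACCAAAGt
Cdh4, miR-34, chr2:179632925-179632946, plus strand: cccaaggcctctgtCACTGCCA
Pcdh7, miR-9, chr5:58120077-58120098, plus strand: atttagttagatttACCAAAGt
Pcdh18, miR-9, chr3:49548207-49548228, minus strand: ctatatccttttcaACCAAAGt
Pcdh19, miR-34, chrX:130120132-130120153, minus strand: gaatgtagagcagcCACTGCCt
Pcdh1 held a further 2 matches to miR-9 and 1 to miR-34 in its 3′ UTR. Of the 33 non-clustered members with an annotated 3′ UTR, 6 held a miR-9 match and 6 a miR-34 match. Over all 19913 genes with a 3′ UTR these shares were 11.4% for miR-9 and 14% for miR-34. A match describes letters in the UTR and was not tested as a binding site.

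The deposited values were read counts per RefSeq entry, with 17279620 to 24428477 reads per library (miR-9 experiment) or 11029604 to 16934133 (miR-34 experiment). Non-clustered members took 0.188% to 0.203% and clustered members 0.101% to 0.110% of a library's reads. Scaled reads are reads multiplied so that all libraries of an experiment have its average total. Levels are given as reads per kb of a gene's longest RefSeq entry per 1000000 reads (RPKM). A gene was tested where its mean was above 10 scaled reads. This read limit was passed by 83 members in the miR-9 experiment (28 non-clustered, 55 clustered) and by 82 in the miR-34 experiment (27 and 55).

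Whether a member passed the limit went with its number of RefSeq entries, and the reason was not tested. Of the 80 members with a single RefSeq entry, 77 passed the limit in each experiment, against 6 (miR-9) and 5 (miR-34) of the 12 members with several entries. Over all genes the limit was passed by 58.5% and 56.8% of the single-entry genes and by 37.2% and 32.5% of the others. Cdh3, Cdh16, Cdh26 and Pcdh11x, all with several largely overlapping entries, had 0 reads in every library, where 0 reads allow a share of up to 1.23e-05% to 2.72e-05% by counting error alone. Cdh23 and Pcdh15 had at most 4 reads in any entry and library. Pcdh9 is a delta-1 protocadherin with 4 entries, and 3 of these stood at 0 in all mice while the fourth held all 100 reads. How reads in overlapping entries were counted is not given, so a value at or near 0 in these genes is not read as absence of the mRNA. The single-entry members under the limit were Cdh17 (0 to 3 reads), Pcdha4 (0 to 2 reads) and Pcdhb1 (1 to 11 reads).

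The clustered genes lie side by side on chromosome 18 of mm9, all on the plus strand. The Pcdha gene model spans 37089939 to 37347311, the 22 Pcdhb genes 37424652 to 37681073 and the Pcdhg model 37833989 to 38001527. Of the 10 coding transcripts of the Pcdha model, 9 joined a first exon of their own to the same 3 last exons, and so did 9 of 10 in the Pcdhg model. Reads in these constant exons fit every isoform. Pcdha4, whose entry contains them, had 0 to 2 reads, so reads in those exons were not credited to every isoform. To which entries they went, if to any, was not tested, and the RPKM of Pcdha and Pcdhg members, taken over the whole entry, are uncertain to that degree. Pcdhb genes have no constant exons, but they are close paralogs, so that reads in identical stretches could be lost or split and values of single Pcdhb, Pcdhga and Pcdhgb genes are uncertain to that degree.

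Among the non-clustered members tested, GFP Ctrl levels ran from 83.6 down to 0.0797 RPKM in the miR-9 and from 76.4 to 0.0701 RPKM in the miR-34 experiment, and Pcdh1, Cdh2, Pcdh20 and Cdh11 led in this order each time. The classical type I cadherin Cdh2 (N-cadherin), a main adhesion protein of excitatory synapses, was the highest cadherin. It stood at 54.7, 50.8 and 55.1 RPKM in the GFP-miR-9sp mice and at 59.0, 56.3 and 55.0 RPKM in their GFP Ctrl mice, where the groups overlapped. In the second experiment, with miR-34 sequestered, it stood at 65.0, 66.9 and 64.4 RPKM in the sponge mice and at 63.0, 64.0 and 63.8 RPKM in GFP Ctrl. The 3 sponge mice were thus all above the 3 controls, by a log2 fold change of 0.04 ± 0.03 (SE; adjusted p = 0.917).

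The other type I cadherins were much lower. Cdh4 (R-cadherin) was at 4.83 ± 1.09 and 4.27 ± 0.702 RPKM (SD, n = 3) in the GFP Ctrl mice of the miR-9 and miR-34 experiments. Cdh1 (E-cadherin, known from epithelia) was at 0.839 ± 0.228 and 0.666 ± 0.494 RPKM. Cdh15 (M-cadherin, known from muscle and cerebellar granule cells) was at 0.871 ± 0.165 and 0.814 ± 0.125 RPKM.

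All 13 type II classical cadherins passed the limit. Cdh11, found in neurons and mesenchymal cells, was the highest of them, at 39.3, 34.7 and 39.6 RPKM in the GFP-miR-9sp mice and 40.0, 41.8 and 38.0 RPKM in GFP Ctrl. Its values were 43.3, 40.4 and 40.6 RPKM with GFP-miR-34sp and 44.0, 39.9 and 43.8 RPKM in GFP Ctrl. Groups overlapped in both experiments. Next came Cdh10 (23 ± 1.43 RPKM in the miR-9 GFP Ctrl mice) and Cdh9 (20.8 ± 2.1), the latter known from dentate-to-CA3 mossy fibre synapses. Cdh20 was at 10.8 ± 1.35, Cdh22 at 9.95 ± 1.11 and Cdh18 at 8.62 ± 1.92 RPKM. Cdh5 (VE-cadherin of endothelial junctions) was at 6.98 ± 0.0782 RPKM. Cdh24, Cdh12, Cdh19, Cdh6, Cdh7 and Cdh8 lay between 2.54 and 6.24 RPKM in these mice. Only the longest of the 4 entries of Cdh8 held reads, so its level is uncertain.

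Of the remaining Cdh genes, only Cdh13 passed the limit. Cdh13 (T-cadherin) is anchored by a lipid and has no cytoplasmic tail. It stood at 31.9, 37 and 29.1 RPKM in the GFP-miR-9sp mice and at 34.8, 36.3 and 33.7 RPKM in GFP Ctrl. With GFP-miR-34sp it stood at 21.2, 25.8 and 26.5 RPKM and at 23, 26.3 and 27.6 RPKM in the matching GFP Ctrl mice. The groups overlapped each time.

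The highest member of all was the delta-1 protocadherin Pcdh1, with 81.6, 77.3 and 93.6 RPKM in the GFP-miR-9sp mice and 84.8, 83.0 and 82.9 RPKM in GFP Ctrl. Its values in the miR-34 experiment were 81.9, 75.7 and 71.2 RPKM with the sponge and 79.9, 73.0 and 76.5 RPKM in GFP Ctrl. The sponge mice lay on both sides of the controls in each experiment. Pcdh20, a protocadherin outside the delta groups as listed here, was at 42.7, 46.1 and 54.9 RPKM with GFP-miR-9sp and at 50.3, 41 and 45.5 RPKM in GFP Ctrl. With GFP-miR-34sp, Pcdh20 was at 50.8, 51 and 53.9 RPKM and at 53.6, 50.5 and 56.1 RPKM in the matching GFP Ctrl mice, again with overlap.

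Among the delta-2 protocadherins, several of which bind actin regulators of the WAVE complex, Pcdh17 was the highest (29.4 ± 1.56 RPKM in the miR-9 and 27.5 ± 1.6 in the miR-34 GFP Ctrl mice). Pcdh10 was at 13.9 ± 1.16 and 10.2 ± 0.481 RPKM. Pcdh18 (2.2 ± 0.162 and 1.61 ± 0.147) and the activity-regulated Pcdh8 (1.4 ± 0.25 and 1.54 ± 0.272) were low. Pcdh19 was close to the limit at 0.0942 ± 0.0228 and 0.0701 ± 0.0257 RPKM. Pcdh8 and Pcdh19 each had 1 of their 2 entries at 0, and whether reads were lost in overlapping entries was not tested. Pcdh12, an endothelial protocadherin, was at 0.193 ± 0.0369 and 0.185 ± 0.0467 RPKM. In the order of GFP Ctrl means, 11 of 27 pairs of neighbours in the miR-9 experiment and 14 of 26 in the miR-34 experiment had overlapping mice. The order from Pcdh1 to Cdh2 to Pcdh20 had no such overlap in either experiment.

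**Figure D1:**
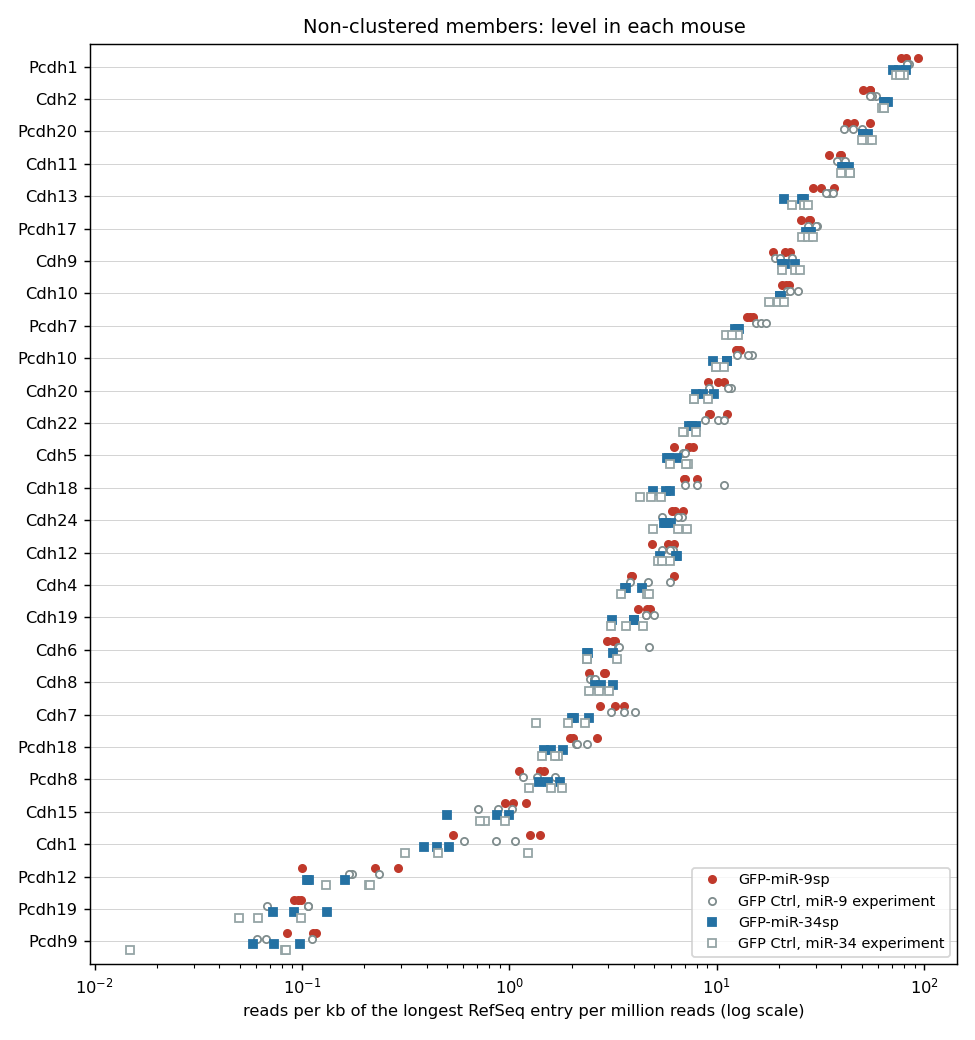
Level of each non-clustered member that passed the read limit in at least 1 experiment, as reads per kb of its longest RefSeq entry per 1000000 reads on a log axis. Each point is a mouse, circles belong to the miR-9 and squares to the miR-34 experiment, and filled symbols are sponge mice. Pcdh1, Cdh2 and Pcdh20 lead in both experiments, and Cdh13, Cdh18, Cdh7 and Pcdh7 sit lower in the miR-34 experiment.

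In the clusters, the C-type isoforms Pcdhgc5, Pcdhgc3 and Pcdhac2 led, whereas Pcdhgc4 (4.33 ± 0.22 RPKM, SD, n = 3, in the miR-9 GFP Ctrl mice) and Pcdhac1 (1.06 ± 0.0535) lay among the other isoforms. Pcdhgc5 was at 31.4, 32.8 and 35.8 RPKM in the GFP-miR-9sp mice and at 36.6, 32.3 and 35.0 RPKM in GFP Ctrl. With GFP-miR-34sp, Pcdhgc5 was at 32.1, 30.7 and 34.7 RPKM, and its GFP Ctrl mice were at 30.6, 32.1 and 34.3 RPKM, so that the groups overlapped in both experiments. Pcdhgc3, Pcdhgc4 and Pcdhgc5 together took 47.6% to 50.8% of all Pcdhg reads in the 6 mice of the miR-9 experiment, and 48% to 49.7% with miR-34 as the target. C-type isoforms are known for expression without random choice of the promoter, and they were read here as shares of a summed tissue, not of single cells.

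Pcdhac2 was the leading Pcdha isoform. It stood at 12.5, 11 and 12.4 RPKM with GFP-miR-9sp and at 13, 13.7 and 13.1 RPKM in GFP Ctrl, where the sponge mice were all lower. The log2 fold change was -0.12 ± 0.06 (SE; adjusted p = 0.97). With GFP-miR-34sp it stood at 11.3, 11.9 and 12.5 RPKM and at 12.4, 12.2 and 11.8 RPKM in the matching GFP Ctrl mice, with overlap.

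Outside the C-types the leading isoforms were Pcdhga11, Pcdhb9 and Pcdha12. Pcdhga11 was at 8.21, 7.04 and 8.63 RPKM with GFP-miR-9sp, 8.26, 9.38 and 8.40 RPKM in its GFP Ctrl mice, 8.51, 8.33 and 8.71 RPKM with GFP-miR-34sp and 8.70, 8.97 and 7.89 RPKM in its GFP Ctrl mice. Pcdhb9 was at 8.76, 7.48 and 8.22 RPKM with GFP-miR-9sp, 9.15, 8.06 and 9.39 RPKM in its GFP Ctrl mice, 9.50, 9.12 and 9.78 RPKM with GFP-miR-34sp and 9.38, 8.81 and 9.08 RPKM in its GFP Ctrl mice. Pcdha12 was at 1.91, 1.88 and 2.81 RPKM with GFP-miR-9sp, 1.46, 2.31 and 1.89 RPKM in its GFP Ctrl mice, 1.91, 2.09 and 2.32 RPKM with GFP-miR-34sp and 1.93, 2.12 and 2.09 RPKM in its GFP Ctrl mice. Sponge and GFP Ctrl mice overlapped for all 3 genes in both experiments. Most clustered genes formed a continuum: 46 of 54 neighbours in the order of GFP Ctrl means overlapped in the miR-9 experiment and 49 of 54 in the miR-34 experiment.

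**Figure D2:**
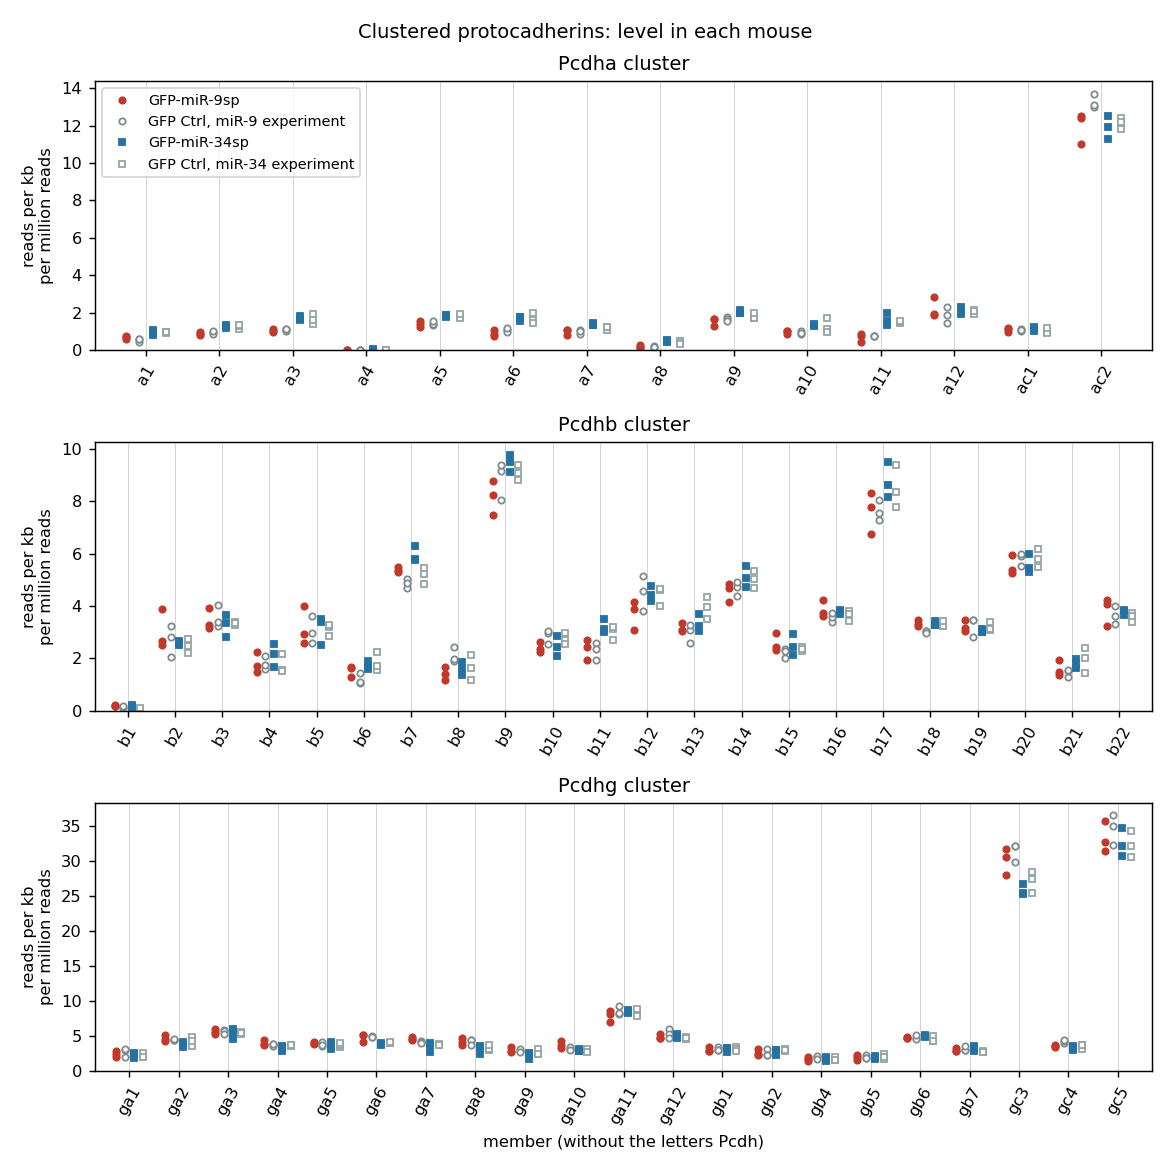
Level of every clustered protocadherin in reads per kb of its RefSeq entry per 1000000 reads, by cluster and with the C-type isoforms at the right of Pcdha and Pcdhg. Points are mice, with circles for the miR-9 and squares for the miR-34 experiment and filled symbols for sponge mice. Pcdhgc5, Pcdhgc3 and Pcdhac2 stand above the other members of their clusters, and most Pcdha isoforms outside the C-types are higher in the miR-34 experiment.

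With GFP-miR-9sp, no member passed an adjusted p of 0.05, as was the case for all 13045 genes tested (0%). At an unadjusted p under 0.05 there were 6 members, 1 non-clustered and 5 clustered, of 83 tested, where 4.73% of all genes tested passed. DESeq2 called no member at an adjusted p of 0.05 either, with 2 calls over all genes. The 28 non-clustered members had a median log2 fold change of -0.03 (13 higher, 15 lower) and the 55 clustered members of 0.01 (30 higher, 25 lower), beside -0.0006 over all genes. For 26 of the 83 members the 95% interval lay within a 1.2-fold change in either direction, where it did so for 52.9% of all genes. Sponge and GFP Ctrl mice did not overlap for 8 members, 3 higher and 5 lower, against 11.0% of all genes. By the study's own criterion (an unpaired two-sided test with p under 0.05 and a ratio above 1.2 or below its inverse), 1 member passed, Pcdhb8, where 1.44% of all genes did. Computed here on reads summed per symbol, this criterion passed a larger share of genes than the study reported, in both experiments.

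Pcdh7, a delta-1 protocadherin also called BH-Pcdh, was the non-clustered member among the 6. Its scaled reads were 2331, 2257 and 2188 with GFP-miR-9sp and 2423, 2546 and 2691 in GFP Ctrl. All sponge mice were below all controls, and the log2 fold change was -0.16 ± 0.05 (SE; 95% interval -0.26 to -0.05, adjusted p = 0.97). Nearly all its reads came from its longer RefSeq entry, with 21740 over the 12 mice against 229 in the other. The stretch shown above that holds the miR-9 match starts at 58120077 in a gene model that spans 58109260 to 58520590 (mm9). Whether the counted transcripts carry that 3′ UTR was not tested.

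In the Pcdhg cluster, Pcdhgc4 was lower with GFP-miR-9sp. It had 355, 365 and 387 scaled reads with the sponge and 418, 434 and 462 in GFP Ctrl, without overlap (log2 fold change -0.23 ± 0.07, SE; 95% interval -0.39 to -0.06, adjusted p = 0.97). Pcdhgc4 is the C-type isoform known to be needed for the survival of interneurons. The 5 interneuron markers summed to 23829 to 26135 scaled reads with the sponge and 24567 to 25381 in GFP Ctrl. Pcdhga7 was higher, with 417, 440 and 469 scaled reads against 411, 393 and 385, also without overlap (log2 fold change 0.18 ± 0.07, SE; adjusted p = 0.97).

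In the Pcdhb cluster, Pcdhb8 differed most in size. It had 55.7, 65.8 and 78.2 scaled reads with GFP-miR-9sp and 90.2, 115 and 94.1 in GFP Ctrl (log2 fold change -0.56 ± 0.17, SE; 95% interval -0.93 to -0.19, adjusted p = 0.97). Pcdhb18 had 328, 336 and 350 scaled reads with the sponge and 310, 311 and 300 in GFP Ctrl (log2 fold change 0.16 ± 0.07, SE; adjusted p = 0.97). Pcdhb7 had 374, 387 and 380 with the sponge and 355, 332 and 343 in GFP Ctrl (log2 fold change 0.17 ± 0.07, SE; adjusted p = 0.97). None of the 3 genes had overlapping groups. The spread of Pcdhb7 between mice of a group, a coefficient of variation of 2.65%, was below the 5.26% that counting alone gives at this read number, and that of Pcdhb18 was 2.68% beside 5.57%.

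By role, 5 type II cadherins were higher and 8 lower with GFP-miR-9sp (median log2 fold change -0.03), and 2 delta-2 protocadherins higher and 3 lower (-0.06). In the clusters, 6 Pcdha genes were higher and 7 lower, 14 Pcdhb genes higher and 7 lower, and 10 Pcdhg genes higher and 11 lower, with medians of -0.00, 0.05 and -0.01. Single values ran from -0.25 (Cdh6) to 0.44 (Pcdh9) among the non-clustered and from -0.56 (Pcdhb8) to 0.37 among the clustered members. Of the members that did not pass the unadjusted threshold, Cdh6 was lower in every sponge mouse, with 171, 169 and 157 scaled reads against 178, 249 and 180 (log2 fold change -0.25 ± 0.14, SE; adjusted p = 0.97). Pcdh10 was at 2106 ± 47.9 scaled reads with the sponge and 2310 ± 193 in GFP Ctrl (SD, n = 3 each), with overlap. The abundant Cdh2, Cdh11, Cdh10 and Pcdh17 had log2 fold changes of -0.06, -0.05, -0.08 and -0.09 with standard errors of 0.05 to 0.06. Their 95% intervals all lay within 1.2-fold, and the lowest bound was 0.863-fold for Pcdh17. Pcdh1, Pcdh20 and Cdh13, abundant as well, were at 0.03 ± 0.07, 0.09 ± 0.10 and -0.07 ± 0.07 (SE). The interval of Pcdh20, 0.916-fold to 1.24-fold, did not lie within 1.2-fold, whereas those of Pcdh1 and Cdh13 did.

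With GFP-miR-34sp, again no member passed an adjusted p of 0.05, where 8 of 12492 genes did (0.0640%). DESeq2 called no member at this threshold, with 36 calls over all genes. At an unadjusted p under 0.05 there were 2 members, both clustered and higher, of 82 tested, where 6.43% of all genes passed. The median log2 fold change was 0.00 over the 27 non-clustered members (14 higher, 13 lower) and -0.00 over the 55 clustered members (27 higher, 28 lower), beside -0.0007 over all genes. The 95% interval lay within 1.2-fold for 28 members, against 49.6% of all genes. Groups did not overlap for 6 members, of which Cdh2, Pcdha7, Pcdhb7 and Pcdhgb7 were higher and Pcdhga4 and Pcdhga6 lower, against 11.6% of all genes. By the study's criterion no member passed, where 1.99% of all genes did.

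Pcdhb7 was among the 2, as it was with GFP-miR-9sp. It had 264, 265 and 288 scaled reads in the GFP-miR-34sp mice and 250, 240 and 222 in GFP Ctrl. The log2 fold change was 0.20 ± 0.08 (SE; 95% interval 0.01 to 0.38, adjusted p = 0.728). It was the only member whose sponge and GFP Ctrl mice were apart in the same direction in both experiments, which share no mice, 1 of 82 members tested in both, where 0.452% of all genes tested in both were so. Its folds were 1.12 (95% interval 1.02 to 1.24) with GFP-miR-9sp and 1.15 (1.01 to 1.30) with GFP-miR-34sp. Neither passed the correction over all genes.

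Pcdhgb7 was the other. It had 202, 176 and 218 scaled reads with GFP-miR-34sp and 165, 173 and 166 in GFP Ctrl (log2 fold change 0.23 ± 0.10, SE; 95% interval 0.00 to 0.45, adjusted p = 0.772). In the miR-9 experiment it had 272, 264 and 306 scaled reads with the sponge and 282, 274 and 328 in GFP Ctrl, with overlap. In the annotation, 9 of 10 Pcdhg transcripts with a 3′ UTR end in a shared 3′ UTR that holds 1 miR-34 match and no miR-9 match. The shared Pcdha 3′ UTR, in 3 of 3 such transcripts, holds neither. Of the 21 Pcdhg genes, 6 were higher and 15 lower with GFP-miR-34sp, with a median log2 fold change of -0.03, and of the 13 Pcdha genes tested, 10 were higher and 3 lower, with a median of 0.03. The 21 Pcdhb genes tested split into 11 higher and 10 lower.

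The non-clustered members had no call with GFP-miR-34sp. 7 type II cadherins were higher and 6 lower, with a median log2 fold change of 0.05. All 5 delta-2 protocadherins had positive values, from 0.00 (Pcdh18) to 0.54 (Pcdh19), but none of their intervals left out 0. Pcdh19 had 13.3 ± 4.06 scaled reads with the sponge and 9.43 ± 3.45 in GFP Ctrl (SD, n = 3 each), with overlap. The lowest value was that of Cdh1 at -0.57 ± 0.42 (SE), on the mice described further on. Cdh10, Cdh11 and Pcdh17 were at 0.05, -0.04 and 0.01 with standard errors of 0.05 to 0.06.

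**Figure D3:**
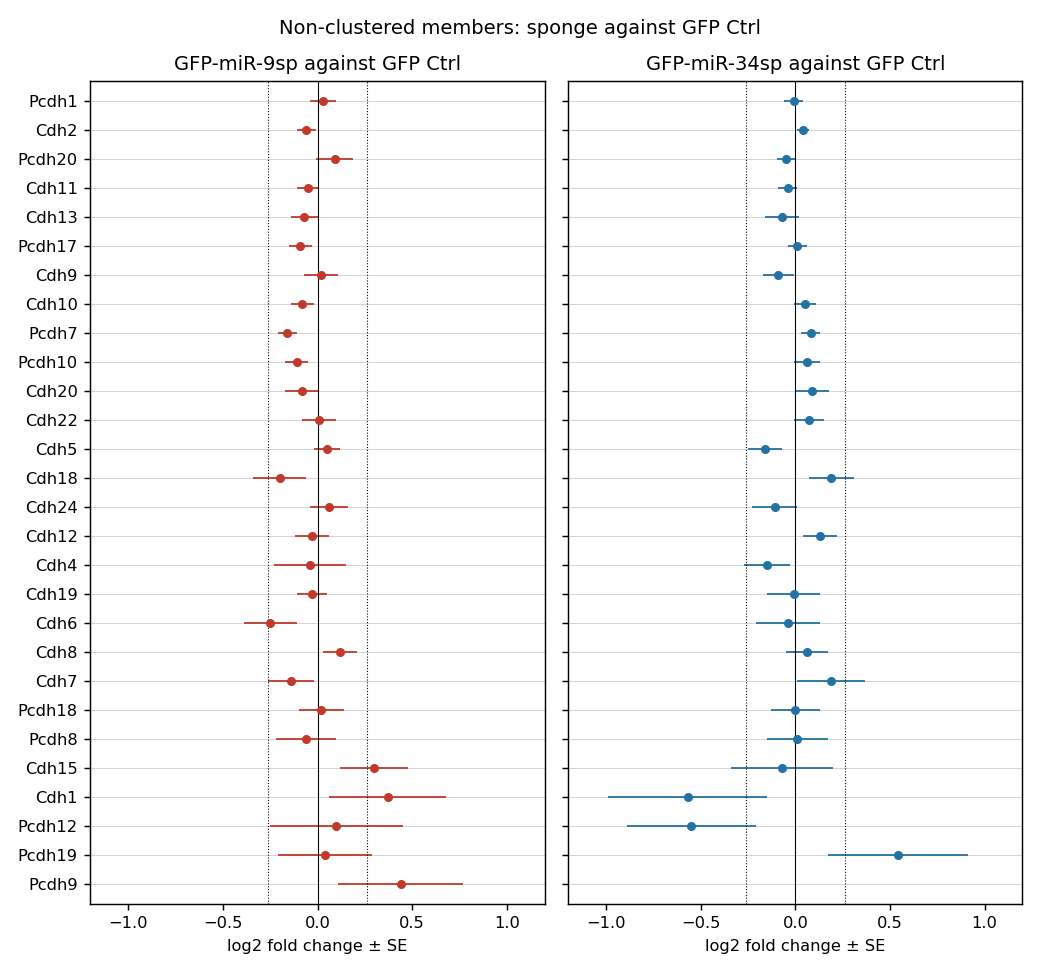
Log2 fold change with its standard error for each non-clustered member, GFP-miR-9sp against GFP Ctrl at the left and GFP-miR-34sp against GFP Ctrl at the right, ordered by level. Dotted lines mark a 1.2-fold change. The abundant members at the top lie close to 0 in both panels, Pcdh7 at -0.16 with GFP-miR-9sp, and the wide errors belong to the low members Cdh1, Pcdh12, Pcdh19 and Pcdh9.

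**Figure D4:**
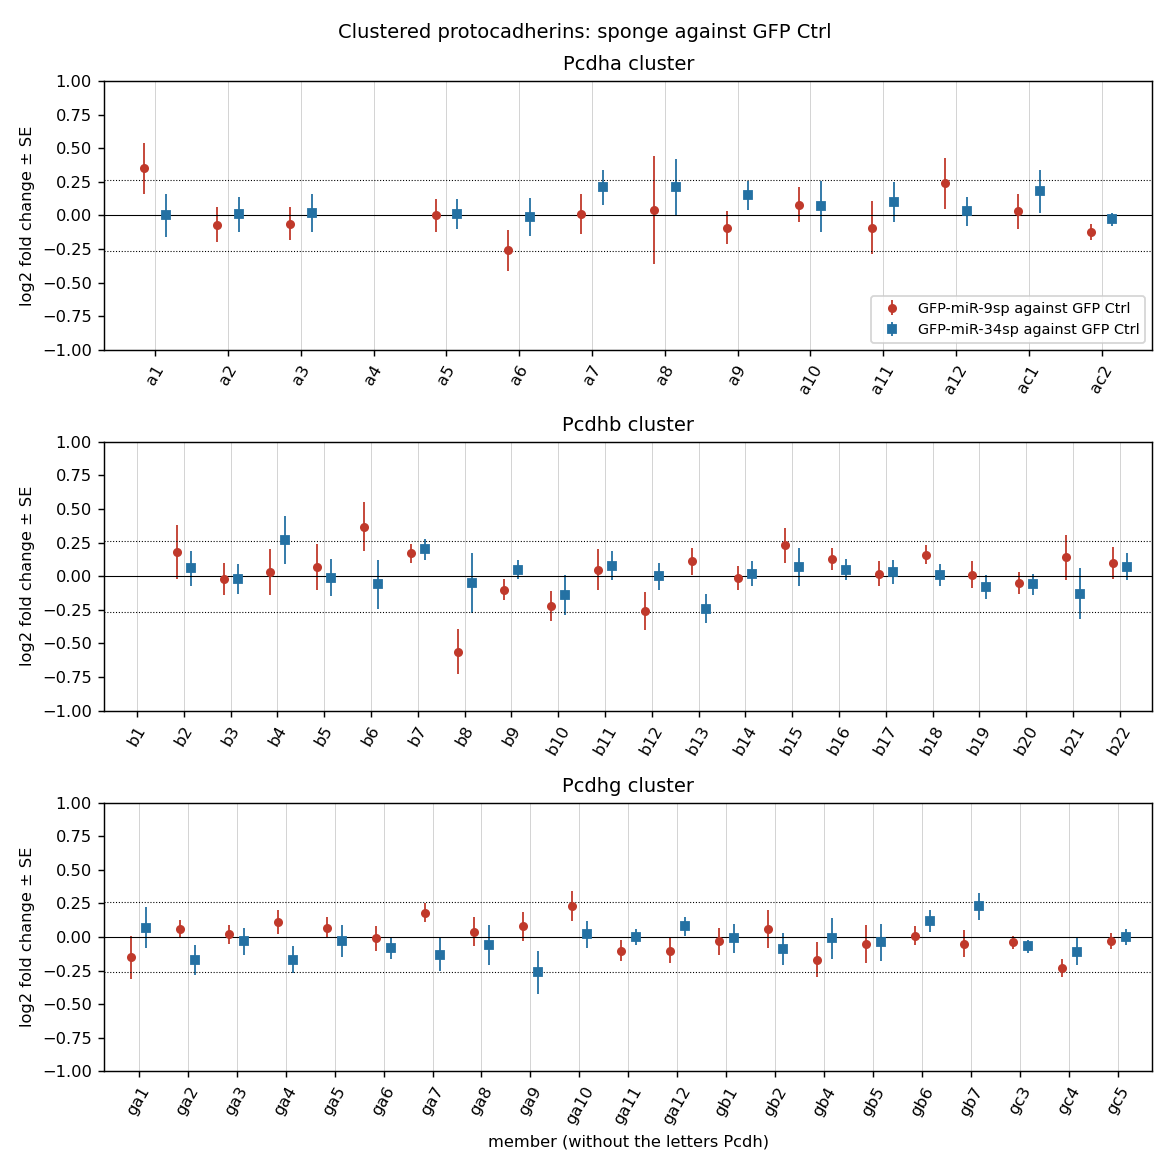
Log2 fold change with its standard error for each clustered protocadherin that passed the read limit, with circles for GFP-miR-9sp and squares for GFP-miR-34sp against their GFP Ctrl mice. Dotted lines mark a 1.2-fold change. Pcdhb8 with GFP-miR-9sp is the point farthest from 0 at -0.56, and Pcdhb7 is above 0 for both sponges.

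Whether the effect of 1 sponge differed from that of the other was tested as an interaction over the 12 mice. No member passed an adjusted p of 0.05, nor did any of the 12835 genes tested (0%), and DESeq2 called 5 genes and no member. At an unadjusted p under 0.05 there were 3 members of 82, against 6.10% of all genes. For Pcdh7 the miR-9 effect minus the miR-34 effect was -0.23 ± 0.07 (log2, SE; 95% interval -0.39 to -0.08, adjusted p = 0.704). In the miR-34 experiment Pcdh7 had 1235, 1294 and 1288 scaled reads with the sponge and 1120, 1280 and 1200 in GFP Ctrl, so sponge and control mice overlapped there.

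Pcdhb13 had 226, 228 and 248 scaled reads with GFP-miR-9sp and 229, 243 and 192 in GFP Ctrl. With GFP-miR-34sp it had 156, 178 and 147 against 210, 170 and 191. The difference between the effects was 0.35 ± 0.16 (SE; 95% interval 0.01 to 0.69, adjusted p = 0.795), and the groups overlapped in each experiment. Pcdhga4 had 365, 340 and 408 scaled reads with GFP-miR-9sp and 359, 336 and 353 in GFP Ctrl, whereas with GFP-miR-34sp it had 175, 213 and 203 against 213, 226 and 227. Its difference was 0.28 ± 0.13 (SE; adjusted p = 0.795).

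The other members called in the miR-9 experiment had these values with GFP-miR-34sp and in its GFP Ctrl mice. Pcdhb8 had 56.8, 48.6 and 41.5 scaled reads against 35.5, 49.9 and 65.0, and Pcdhb18 had 216, 215 and 226 against 212, 212 and 226. Pcdhga7 had 171, 233 and 243 scaled reads against 240, 234 and 231, and Pcdhgc4 had 223, 203 and 238 against 206, 252 and 251. All 4 overlapped there, and none of their differences between the sponge effects passed an unadjusted p of 0.05.

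**Figure D5:**
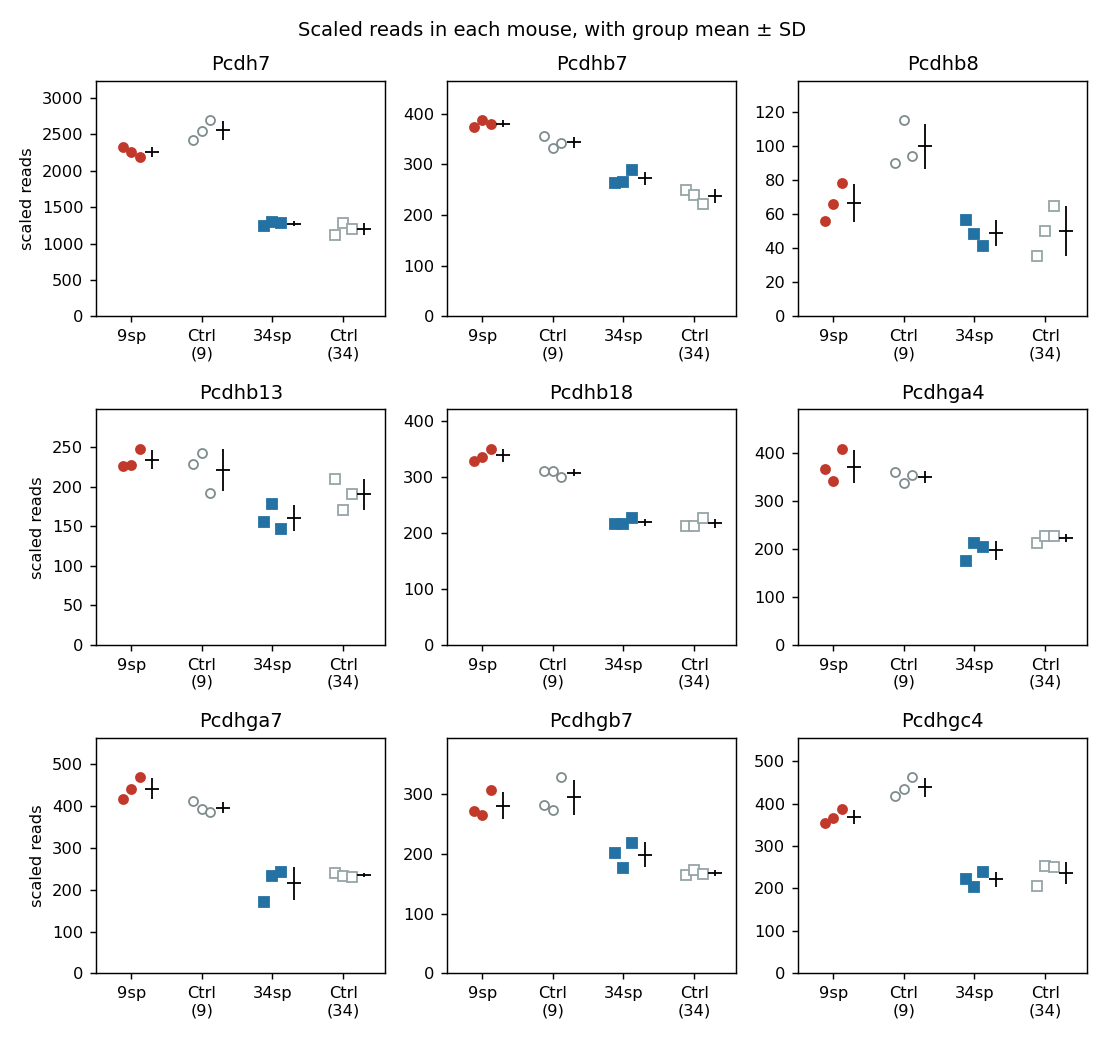
Scaled reads in each mouse, from 0, for the 9 members with an unadjusted p under 0.05 in a sponge comparison or in the difference between the sponge effects. Symbols are mice in the order of their numbers, and the bar beside each group is its mean with the SD. Pcdhb7 is higher in all sponge mice of both experiments, whereas Pcdh7, Pcdhb8 and Pcdhgc4 are lower in all GFP-miR-9sp mice and overlap in the miR-34 experiment.

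Members with seed matches had fold changes of both signs. In the miR-9 experiment, the 5 tested non-clustered members with a miR-9 match had log2 fold changes of 0.37 ± 0.31 for Cdh1 (8-base), -0.04 ± 0.19 for Cdh4, 0.03 ± 0.07 for Pcdh1, 0.02 ± 0.12 for Pcdh18 and -0.16 ± 0.05 for Pcdh7 (SE). In the miR-34 experiment, the members with a miR-34 match were Cdh4 (8-base) at -0.15 ± 0.12, Pcdh1 at -0.01 ± 0.05 and Pcdh19 at 0.54 ± 0.37. The Pcdhb genes with an annotated 3′ UTR and a miR-9 match were Pcdhb5 (8-base), Pcdhb10 and Pcdhb19, with log2 fold changes of 0.07, -0.22 and 0.01 in the miR-9 experiment. The annotated 3′ UTR of Pcdh1 has 4041 bases, more than its whole counted RefSeq entry (3902 bases), so that entry cannot hold all of it. For Pcdhb19 the 3′ UTR has 4568 bases beside 4714 in the whole entry. Whether the counted transcripts carry the matches was not tested for any of these genes. Over all tested genes with a 3′ UTR, the median was 0.009 with a miR-9 match and -0.002 without, and -0.002 with and without a miR-34 match in the miR-34 experiment.

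Some members varied between mice of the same group far more than genes of like read number. Cdh1 had 125, 112 and 47.8 scaled reads with GFP-miR-9sp and 53.5, 76.4 and 94.1 in GFP Ctrl, and 29.4, 22.4 and 25.8 with GFP-miR-34sp and 26.1, 71.0 and 18.2 in GFP Ctrl. Its coefficient of variation within groups was 36.3% and 53.3% in the miR-9 and miR-34 experiments, where genes within 1.5-fold of its read number had medians of 12.9% and 18.7%. The high value in the miR-34 experiment belonged to GFP Ctrl mouse 8, in which Slc6a13, a transporter of the leptomeninges, had 313 scaled reads against 113 to 165 in the other 5 mice. Adora2a, the adenosine receptor of striatal neurons, had 111 there against 23.5 to 29.7. Slc6a13 is 1 of 5 mural and vascular leptomeningeal markers and Adora2a 1 of 6 striatal markers. The others of these lists are not given by mouse here. The part of leptomeninges or striatum in the Cdh1 value was not tested.

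Cdh4 had 494, 792 and 498 scaled reads with GFP-miR-9sp and 598, 489 and 765 in GFP Ctrl, a coefficient of variation of 25.8% beside a median of 5.24% for genes of like read number. Within groups, Pcdh20 varied by 11.7% beside 3.23% and Cdh18 by 16.8% beside 5.96% in the same experiment. The dentate granule cell marker Prox1 was highest in GFP-miR-9sp mouse 23 (2472 scaled reads) and GFP Ctrl mouse 2 (2110), against 1540 to 1727 in the other 4 mice. The same 2 mice had the highest Pcdh20 and the lowest Cdh1 of their groups, which was noticed after the values were seen, and the part of the dentate share in these values was not tested.

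More members were called when mice of the same kind were compared between the experiments, and so were more of all genes. The counts over all members lay near or little above the shares over all genes, and they are not read as particular to the members. This comparison was added after the values were seen, and it sets mice of separate experiments, libraries and depths against each other, so that experiment and library cannot be told apart. In the GFP Ctrl mice, 13 members were higher and 9 lower in the miR-34 experiment at an adjusted p under 0.05, of 82 tested, where 15.1% of all genes were higher and 10.2% lower. In the sponge mice, 14 members were higher and 10 lower, against 13.7% and 9.43% of all genes. 17 of the 82 members were called in both contrasts, which share no mice, with 10 higher and 7 lower, where 10.8% of all genes were higher and 5.70% lower in both.

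Of the 10 higher members, 8 were Pcdha isoforms, out of 13 Pcdha genes tested. Pcdha11 was at 0.834, 0.748 and 0.441 RPKM with GFP-miR-9sp and 0.727, 0.751 and 0.717 RPKM in GFP Ctrl. Its levels in the other experiment were 1.56, 1.33 and 1.99 RPKM with GFP-miR-34sp and 1.43, 1.5 and 1.53 RPKM in GFP Ctrl. All 6 mice of the miR-34 experiment were above all 6 of the other, with a log2 difference of 1.10 ± 0.19 in GFP Ctrl mice (SE; adjusted p = 0.000442) and 1.28 ± 0.19 in sponge mice (adjusted p = 0.000102). Pcdha1, Pcdha2, Pcdha3, Pcdha5, Pcdha6, Pcdha8 and Pcdha10 were the others, with log2 differences of 0.41 (Pcdha5) to 1.42 (Pcdha8) in GFP Ctrl mice. Pcdha8 rested on 10.3 to 35.9 scaled reads per mouse.

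The C-type Pcdha isoforms and Pcdha12 were not called in either contrast. Pcdhac2 differed by -0.06 ± 0.06 and 0.03 ± 0.06 and Pcdhac1 by 0.01 ± 0.14 and 0.15 ± 0.14 (log2, GFP Ctrl and sponge mice), and Pcdha12 by 0.19 ± 0.18 and -0.02 ± 0.17. Summed, the Pcdha isoforms outside the C-types took 56.5 to 63.4 of every 1000000 reads in the miR-9 and 76.6 to 92.3 in the miR-34 experiment. Pcdhac1 and Pcdhac2 together took 64.5 to 80.1 and 67.5 to 73.2. The share of Pcdhac2 in all Pcdha reads was 49.1% to 53.2% and 40% to 45.1%. The other higher members were Cdh2 and Pcdhb11, the latter with log2 differences of 0.46 ± 0.14 and 0.49 ± 0.14.

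The 7 lower members were Cdh7, Cdh13, Cdh22, Pcdh7, Pcdh10, Pcdh18 and Pcdhgc3. Cdh7, a type II cadherin, differed by -0.85 ± 0.16 in GFP Ctrl and -0.53 ± 0.16 in sponge mice (adjusted p = 0.00105 and 0.0239). Pcdh7 differed by -0.39 ± 0.05 and -0.16 ± 0.05 (adjusted p = 3.88e-05 and 0.0372). Cdh2 went the other way by 0.23 ± 0.04 and 0.33 ± 0.04 (adjusted p = 0.000845 and 2.96e-05).

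Of 65 genes from 5 related lists, no gene passed an adjusted p of 0.05 in either sponge comparison or in the difference. The lists hold catenins and plakophilins, other cadherin superfamily genes, regulators of the clustered protocadherins such as cohesin, protocadherin partners with the WAVE complex, and shedding enzymes. At an unadjusted p under 0.05, 3 of 48 tested genes were higher with GFP-miR-9sp and 3 of 47 with GFP-miR-34sp, and none was lower. Over all genes, 2.47% were higher and 2.26% lower with GFP-miR-9sp, and 2.71% and 3.72% with GFP-miR-34sp. In the difference, 1 of 47 passed, Fjx1, a kinase-like protein of the Fat and Dachsous pathway, at -0.20 ± 0.08 (log2, SE; adjusted p = 0.767; named after its values were seen). With GFP-miR-9sp these were the receptor Ret (log2 fold change 0.49 ± 0.20), the giant cadherin Fat2 (1.01 ± 0.42) and the cohesin subunit Stag1 (0.11 ± 0.04), all with an adjusted p of 0.97. With GFP-miR-34sp they were the giant cadherin Fat3 (0.20 ± 0.05, adjusted p = 0.294), the seven-pass cadherin Celsr3 (0.18 ± 0.06, adjusted p = 0.671) and the focal adhesion kinase Ptk2 (0.12 ± 0.05, adjusted p = 0.767). Fat3 had 1823 ± 111 scaled reads with the sponge and 1580 ± 38.6 in GFP Ctrl (SD, n = 3 each). Fat2 rested on few reads, with 41.9 ± 24.3 scaled reads with GFP-miR-9sp and 21.8 ± 9.6 in its GFP Ctrl mice (SD, n = 3 each).

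The next genes by p value in these lists did not pass the unadjusted threshold. With GFP-miR-9sp, the catenins Jup and Ctnna1, which link cadherins to actin, were at -0.09 ± 0.05 and -0.07 ± 0.05 (log2, SE), the cohesin subunit Rad21 at -0.05 ± 0.04, the WAVE complex members Abi2 and Wasf1 at -0.16 ± 0.12 and 0.07 ± 0.07, and the gamma-secretase subunits Psenen and Ncstn at -0.18 ± 0.11 and -0.03 ± 0.04. With GFP-miR-34sp, Ctnnb1 (beta-catenin) was at -0.54 ± 0.31 on only 17.3 against 24.3 scaled reads and Ctnna1 at -0.07 ± 0.06. Stag2 and Nipbl, of cohesin and its loader, were at 0.29 ± 0.20 and 0.43 ± 0.30, the latter on 14.3 against 10.4 scaled reads. Brk1 was at 0.06 ± 0.04, Ncstn at 0.06 ± 0.05 and Psenen at 0.03 ± 0.06. How reads in overlapping entries were counted is not given, so the few reads of Ctnnb1 and Nipbl are not read as low mRNA levels.

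Of 13 marker lists of hippocampal and neighbouring cell types, the summed level did not overlap between sponge and GFP Ctrl mice for choroid plexus and striatum in the miR-34 experiment and for microglia in the miR-9 experiment. Among single genes, 11.0% (miR-9) and 11.6% (miR-34) of all genes tested did not overlap either. The 8 choroid plexus markers summed to 933 to 1950 scaled reads in the GFP-miR-34sp mice and 8423 to 30895 in their GFP Ctrl mice, with 3 of them past an adjusted p of 0.05 and 1 at 0 in all mice. In the miR-9 experiment the sums were 1041 to 17669 and 2482 to 14950. The 4 microglial markers summed to 6613 to 6941 scaled reads with GFP-miR-9sp and 7209 to 7287 in GFP Ctrl, none at 0 and none past an adjusted p of 0.05. The 6 striatal markers summed to 801 to 838 scaled reads with GFP-miR-34sp and 882 to 1265 in GFP Ctrl, with none past an adjusted p of 0.05 and Drd1 at 0 to 1.12 scaled reads. The part of choroid plexus tissue, striatum or microglia in the members' values was not tested. The endothelial markers summed to 2596 to 2893 with GFP-miR-34sp and 2562 to 3090 in GFP Ctrl, beside 314 ± 18.5 and 352 ± 37 scaled reads of the endothelial Cdh5 (SD, n = 3 each; log2 fold change -0.16 ± 0.09).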

How the data were processed

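Hippocampal RNA was made into libraries with poly-A enrichment and sequenced as 50-base single reads. The authors deposited raw counts per RefSeq entry with the entry's length. The submitters' notes name STAR and mm10, whereas the methods of the study name mm9. How reads in overlapping entries were counted is not given in the sources used here. Entries were matched to symbols through the reference tables (32422 of 32850, 98.7%) and summed. edgeR 4.0.16 (TMM, quasi-likelihood test, R 4.3.3) was fitted per experiment (6 mice) and, for the difference, over 12 mice, on genes with a mean above 10 scaled reads, with Benjamini-Hochberg adjustment over all genes tested. Every non-clustered member tested could be named. Values per mouse were given for members with an unadjusted p under 0.05, for those apart in 1 direction in both experiments, for the 5 highest non-clustered members and for the highest of each cluster, C-types apart. Of the related lists, the 2 genes with the smallest p were named. The members and lists were chosen with earlier results of these data known. DESeq2 1.42.0, other scalings, read limits, entries counted apart, 1 model of 12 mice, the study's criterion and leaving out each mouse were alternatives. The fits were tested on simulated counts. Library totals ran from 11029604 to 24428477, and floors from counts cover counting error only. The intervals of fold changes and differences come from the edgeR fits, whose standard errors also include the spread between mice.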

Additional observations from a re-analysis of the deposited data

How the results depend on the processing

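No member passed an adjusted p of 0.05 in a sponge comparison or in the difference under any alternative run. The 11 log2 values with an unadjusted p under 0.05 kept their sign in all 165 refits, leaving out each mouse included (Pcdh7 from -0.19 to -0.11 and Pcdhb8 from -0.69 to -0.44 with GFP-miR-9sp, Pcdhb7 from 0.15 to 0.19 with GFP-miR-9sp and from 0.15 to 0.24 with GFP-miR-34sp). Of 706 refits of the 46 other values, 48 changed sign, to a size of at most 0.19. The 11 values were chosen by their p in these same mice, so a change of sign was unlikely from the start. The kept signs therefore add no evidence for these members. Counts of members at an unadjusted p under 0.05 were small and moved by over 1.5 times in these cases, where the cause was not tested. In the miR-9 experiment, the 1 non-clustered member became 2 with library totals alone, 2 with at least 1 read and 0 by the study's criterion. The 5 clustered members became 2 with DESeq2, 3 with library totals alone and 1 by the study's criterion. In the miR-34 experiment, the 2 clustered members became 0 with DESeq2, 1 at a read limit of 100, 1 in 1 model of 12 mice and 0 by the study's criterion. For the difference, the 1 non-clustered member became 3 with library totals alone and 4 with at least 1 read. The 2 clustered members became 0 with DESeq2 and 1 with library totals alone, with median-of-ratios size factors and with entries counted apart. Leaving out each mouse in turn gave 1 to 5 non-clustered and 2 to 7 clustered members with GFP-miR-9sp, 0 to 3 and 0 to 4 with GFP-miR-34sp, and 1 to 4 and 0 to 4 for the difference. The most non-clustered members, 5, came without GFP Ctrl mouse 2 of the miR-9 experiment, and the fewest clustered members, 2, without its mouse 16. With GFP-miR-34sp, 0 clustered members were left without sponge mouse 18 and 4 came without GFP Ctrl mouse 8. Shares over all genes in these refits are not given here, so the moving counts are not read as particular to the members.

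Between the experiments, the 12 clustered members called in GFP Ctrl mice became 7 at a read limit of 100. Leaving out each mouse gave 7 to 11 clustered and 7 to 13 non-clustered members in GFP Ctrl mice (10 with all mice), and 9 to 13 clustered (15) and 2 to 11 non-clustered (9) in sponge mice. The lowest of these, 2, came without GFP-miR-34sp mouse 3. For these refits too, shares over all genes are not given here, and the counts are not read as particular to the members. No paired analysis was possible because sponge and GFP Ctrl groups share no mouse numbers, and the number 8 shared by the GFP Ctrl groups of the 2 experiments names different animals. With 3 mice a group the median standard error of the members was 0.11 on the log2 scale in each experiment, and the 95% interval lay within 1.2-fold for 26 of 83 and 28 of 82 members.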
